A study of Mus musculus with 9 samples.

Results

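The effect of losing Fkbp5 under chronic restraint stress was examined in the medial prefrontal cortex of mice, by comparing stressed Fkbp5-/- mice (KO_ST) with stressed wild-type mice (WT_ST). These are 6 of the 9 samples of the series, 3 in each group, taken by the genotype and treatment in their labels. Per the labels all mice were of the C57BL/6 strain, 11 weeks old, and the tissue was prefrontal cortex. The study's methods give a younger age for the mice used and do not say whether it applies before or after the weeks of restraint. By the study's methods the mice were male, the knockout line came from the Jackson Laboratory and had been backcrossed to C57BL/6J, and all mice were offspring of heterozygous parents. Stressed mice of both genotypes had been restrained daily in a glove over a period of weeks. The remaining 3 samples, wild-type mice that were not restrained (CT), are not part of the comparison and are given for description. They enter the quantile normalization and, in 1 alternative fit named below, the estimate of the spread. No unstressed Fkbp5-/- mice were among the samples, so stressed mice alone carry the genotype comparison. The labels do not say which cage or litter a sample came from, and p-values measure the spread between these samples.

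Fkbp5 encodes FKBP51, a co-chaperone that binds Hsp90 in the glucocorticoid receptor complex and lowers the affinity of the receptor for its hormone. The receptor in turn induces Fkbp5, which closes a short negative feedback loop. In the prefrontal cortex, as in other brain regions, glucocorticoids reach the receptor during stress and change the transcription of its target genes. The comparison asks which transcripts differ between stressed mice with and without this brake.

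Between 43778471 and 51209381 reads per library were counted on genes in the 6 stressed mice. A mean of at least 30 reads over these libraries was reached by 14282 of the 24532 listed genes, and only these were tested. FPKM, the reads per kilobase of transcript scaled to the mapped reads of the library, was compared as log2(FPKM+1) after quantile normalization, and log2 fold changes are KO_ST minus WT_ST on that scale, which understates changes of low genes. A gene is said to rise or fall where limma's moderated test gave a Benjamini-Hochberg adjusted p under 0.05. A nominal criterion, an unadjusted p under 0.05 from limma with a fold change above 1.2, is used for counts and to choose some of the genes named. Its limits are those of the study, which took p from a different test, so the genes that meet it here are not the study's own list. It was met by 285 genes (2.0%). In KO_ST, 136 of these stood higher (0.952%) and 149 stood lower (1.04%), and 820 genes had an unadjusted p under 0.05. At the adjusted threshold 20 genes (0.140%) differed, 10 in each direction.

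Fkbp5 itself, which checks the genotype labels, fell in KO_ST. Its FPKM was 9.83, 9.47 and 10.3 in the WT_ST mice and 3.59, 4.69 and 4.45 in the KO_ST mice. Every knockout mouse lay below every wild-type mouse, including CT at 7.61, 6.46 and 7.28. The mean was 9.85 ± 0.390 (SD, n = 3) in WT_ST and 4.24 ± 0.574 (SD, n = 3) in KO_ST, so that 43.1% of the wild-type level was still counted on the gene. The log2 fold change was -1.04 (standard error 0.0865, adjusted p = 0.00883 from limma). Between 625 and 907 reads fell on Fkbp5 in each KO_ST library, against 1806 to 1925 in WT_ST. The call was lost without WT_ST replicate 2 (log2 fold change -1.07, adjusted p = 0.0525 from limma). Which part of the gene the allele lacks is not given in the sources used here, and counts over the whole gene cannot show it.

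The 20 genes fell into groups by position and by sequence. On chromosome 17, the chromosome of Fkbp5, lay 10 of them, against 697 of all tested genes. A near-identical copy elsewhere in the genome, sharing at least 50% of the shorter transcript's 31-base words or named as a retrogene or related sequence of it, was held by 9 of the 20, against 246 of all tested genes. Only 6 were neither on chromosome 17 nor had such a copy, out of 13371 tested genes. When these 13371 genes were fitted alone, 2 of them, Sumo3 and Brd3, passed the adjusted threshold. By the nominal criterion, 3.46% of the 665 chromosome 17 genes without a copy, 11.0% of the 246 genes with a copy and 1.76% of the remaining genes were called.

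The calls depended on single mice to unequal degrees. When each of the 6 stressed mice was left out in turn, 7 of the 20 genes passed the adjusted threshold every time: Tmem181b-ps, Tmem181c-ps and Decr2 on chromosome 17, both Rps27 copies, Sumo3 and Brd3. The other 13 lost the call at least once. Smim1, Ncoa7, Rsph3b and Tmem181a lost it in all 6 fits, with adjusted p from limma of 0.0851 to 0.143, 0.0632 to 0.213, 0.0615 to 0.124 and 0.0966 to 0.156. Glo1 and Dynlt1b each lost it in 5, at 0.12 to 0.224 and 0.085 to 0.22. Gm14296 lost it in 4, at 0.0686 to 0.136, and Gm14295 and Gm14305 in 3, at 0.0540 to 0.0642 and 0.0763 to 0.136. Rps6ka2 lost it in 2, at 0.0545 and 0.0883, and Fkbp5 and Fndc1 only without WT_ST replicate 2, at 0.0525 and 0.0622. None of these genes changed direction in any of the 6 fits.

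**Figure D1:**
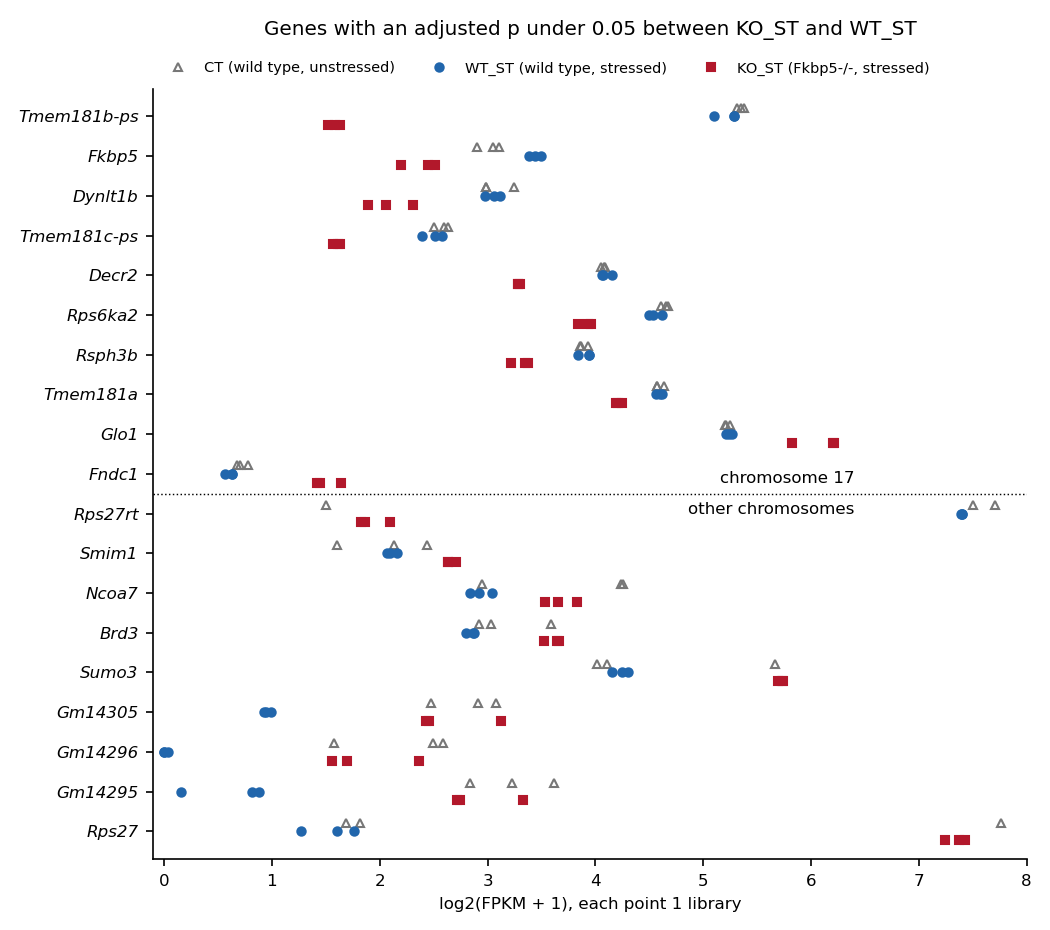
Level of 19 of the 20 genes with an adjusted p under 0.05, as log2(FPKM+1) before quantile normalization, with each library as 1 point. For each of the 10 chromosome 17 genes the KO_ST mice lie outside the 6 wild-type mice, with the CT values of Fkbp5 between the stressed groups. On other chromosomes this holds for 2 of the 9 genes shown.

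The unstressed wild-type mice lay differently in these groups. For all 10 chromosome 17 genes, the KO_ST mice lay outside the range of all 6 wild-type mice, and for 9 of the 10 every CT mouse was nearer to the WT_ST mean than to the KO_ST mean. Fkbp5 was the exception, with 2 of 3 CT mice nearer to WT_ST. Of the 10 called genes on other chromosomes, 3 had all KO_ST mice outside the range of the 6 wild-type mice, and 1 had every CT mouse nearer to WT_ST. Over all tested genes, 517 (3.62%) had the KO_ST mice outside that range.

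A called gene can share its whole coding sequence with a copy, and a read from that part then matches both. The coding sequences of Rps27, a protein of the small ribosomal subunit, and of its retrogene Rps27rt had 255 bases and were identical in matching GENCODE M21 transcripts (build GRCm38). Rps27 is coded on the minus strand of chromosome 3 in chr3:90212725-90213615 and Rps27rt on the minus strand of chromosome 9 in chr9:114982453-114982707. The sequence shared by the ribosomal pair, whose copies changed most, is shown 5′ to 3′ in lower case, without capitals because no base differed.
Rps27 and Rps27rt: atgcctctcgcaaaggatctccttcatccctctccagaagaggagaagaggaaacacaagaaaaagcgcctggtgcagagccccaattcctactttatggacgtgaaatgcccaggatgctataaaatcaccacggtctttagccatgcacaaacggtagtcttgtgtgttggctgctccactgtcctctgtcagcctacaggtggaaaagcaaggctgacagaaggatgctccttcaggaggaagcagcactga

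Rps27 and Rps27rt had the largest opposite changes of all called genes. The FPKM of Rps27 was 2.40, 2.04 and 1.41 in WT_ST and 171, 150 and 165 in KO_ST. For Rps27rt it was 167, 168 and 168 in WT_ST and 2.54, 3.27 and 2.63 in KO_ST. Each mouse thus had nearly all of its signal on one of the copies, and the genotypes did not overlap for either. The log2 fold changes were 5.78 (standard error 0.128, adjusted p = 1.96e-06 from limma) for Rps27 and -5.46 (standard error 0.0740, adjusted p = 1.77e-07 from limma) for Rps27rt. Summed over both copies, FPKM was 169 ± 0.442 (SD, n = 3) in WT_ST and 165 ± 10.4 (SD, n = 3) in KO_ST. The sums of the groups overlapped. An exact permutation test of 3 mice against 3 cannot give a p below 0.1 and so cannot settle whether such sums differ (two-sided p = 0.7 here). CT replicate 2, a wild-type mouse, had 216 on Rps27 and 1.83 on Rps27rt, as in KO_ST.

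Further pairs, chosen after their values were seen, were Eno1 with Eno1b and Atp6v0c with its pseudogene. Eno1, the glycolytic enzyme enolase, measured 590, 556 and 560 FPKM in WT_ST and 383, 370 and 451 in KO_ST (adjusted p = 0.108 from limma). Its copy Eno1b stood at 0.0356, 0.0388 and 28.4 in WT_ST and at 120, 114 and 66.1 in KO_ST (adjusted p = 0.647 from limma). Their sum was 86.7% of the wild-type level in KO_ST. Atp6v0c, a proton pump subunit encoded on chromosome 17, measured 806 FPKM in KO_ST replicate 3 and between 12.8 and 25.7 in the other 5 stressed mice, and Atp6v0c-ps2 measured 0.0564 in that mouse and 786 to 929 in the others. The sum of this pair was 842 ± 39.0 (SD, n = 3) in WT_ST and 876 ± 68.1 (SD, n = 3) in KO_ST (two-sided exact permutation test, p = 0.4).

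**Figure D2:**
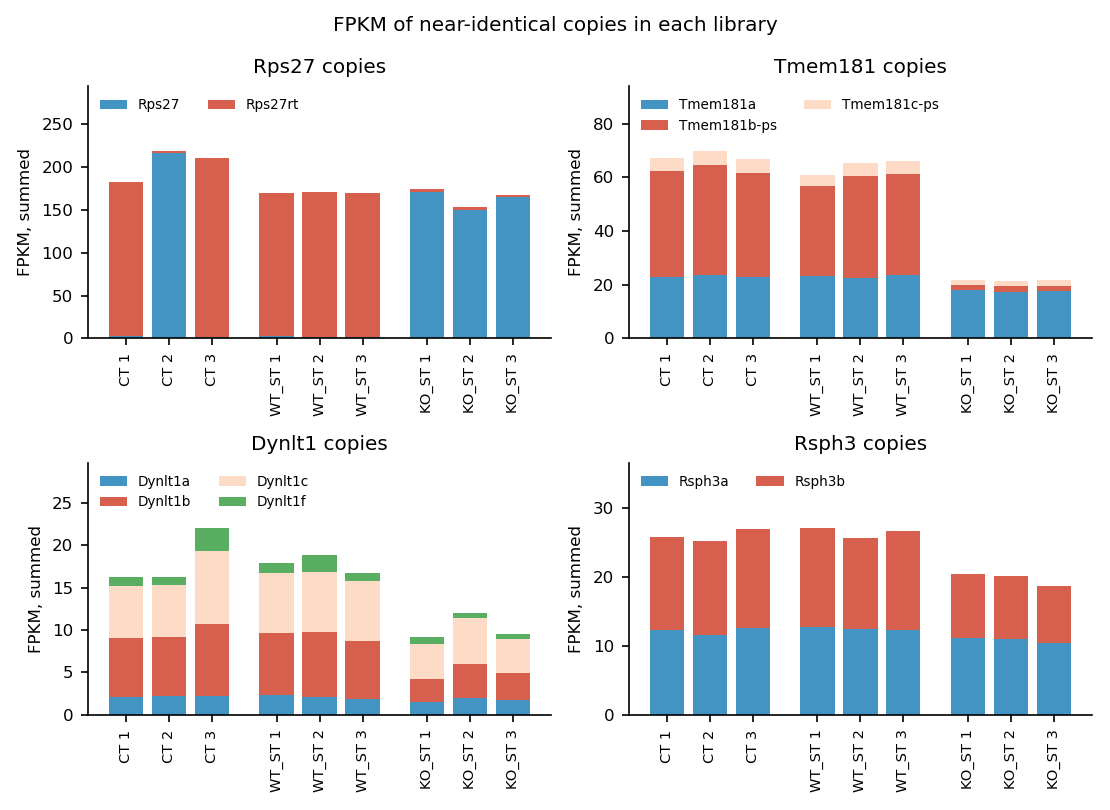
FPKM of near-identical genes stacked in each library, for the copies of Rps27, Tmem181, Dynlt1 and Rsph3, with the 3 libraries of each group side by side. The Rps27 totals of KO_ST and WT_ST overlap while the copies exchange places, and those of CT lie above both, at 182 to 218. The totals of the other families are lower in all 3 KO_ST mice than in the 6 wild-type mice.

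On chromosome 17 the genes that differed were not spread evenly. Fkbp5 lies in chr17:28398753-28486149 (GRCm38). The windows used here were chosen after the values were seen, so their counts are a description, to be read against the 2.0% of all tested genes that met the criterion and the 3.62% outside the wild-type range. None of the 9 tested genes before 6 Mb met the criterion. Between 6 and 9 Mb, 12 of 27 tested genes met the nominal criterion, 7 passed the adjusted threshold and 14 had all KO_ST mice outside the range of the 6 wild-type mice. Of the 12, Tmem181a, Tmem181b-ps, Tmem181c-ps, Dynlt1b, Dynlt1c, Dynlt1f, Rsph3b and Tagap have a near-identical copy. The 5 called chromosome 17 genes with a copy all lie in this window, so its counts are not counts of separate sequences. Between 9 and 25 Mb, none of 125 tested genes met the criterion or lay outside that range. In the 10 Mb from 25 to 35 Mb, which hold Fkbp5, 15 of 211 met the criterion, 3 passed the adjusted threshold and 26 (12.3%) lay outside the wild-type range. Beyond 35 Mb, 5 of 325 genes (1.54%) met the criterion and 8 (2.46%) lay outside the range, both below the shares over all genes. Genes meeting the criterion thus were most frequent from 6 to 9 Mb and around Fkbp5, with none from 9 to 25 Mb. Loss of Fkbp5 cannot be told apart in this design from any other difference on the chromosome that carries the allele, and no sequence variants were analysed here.

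**Figure D3:**
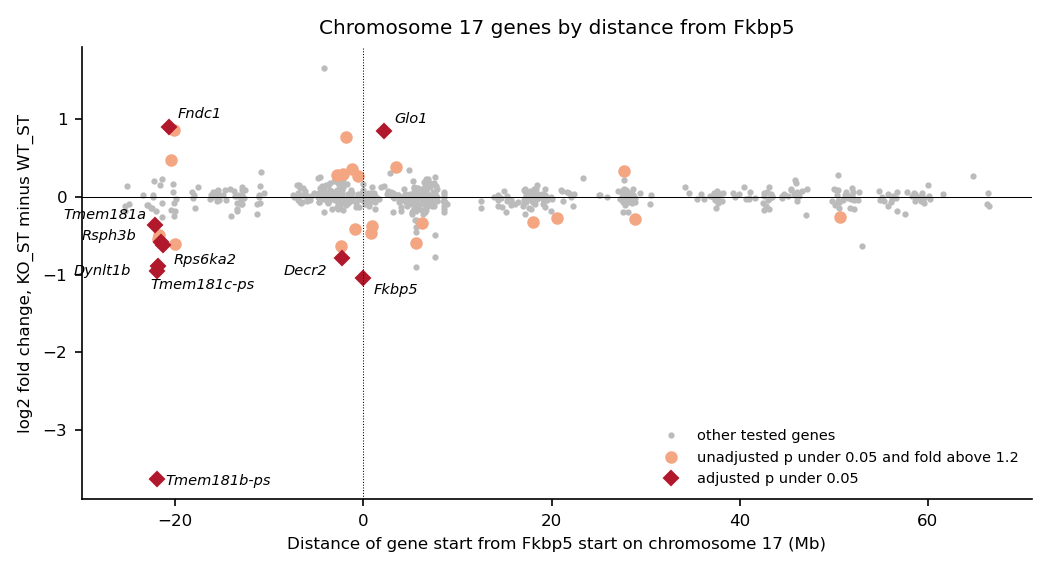
Log2 fold change, KO_ST minus WT_ST, of each of the 697 tested chromosome 17 genes against the distance of its start from that of Fkbp5 in Mb, with genes past each threshold coloured. The 10 genes past the adjusted threshold lie within a few Mb of Fkbp5 or more than 20 Mb before it, with none between.

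In the group nearest to Fkbp5, Decr2 and Glo1 changed in opposite directions. Decr2, a peroxisomal enzyme that breaks down unsaturated fatty acids, starts 2.32 Mb before Fkbp5. Its FPKM was 16.8, 15.8 and 15.7 in WT_ST and 8.75, 8.74 and 8.86 in KO_ST. The 3 CT mice, at 15.9, 15.6 and 16.0, matched WT_ST, and KO_ST stood at 54.5% of the WT_ST mean. Decr2 fell by 0.79 in log2 units (standard error 0.0494, adjusted p = 0.00204 from limma).

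Glo1, the glyoxalase that detoxifies methylglyoxal, starts 2.19 Mb after Fkbp5 and rose. It measured 36.1, 36.7 and 37.4 FPKM in WT_ST and 72.8, 73.1 and 55.7 in KO_ST, so that 2 knockout mice stood close together and replicate 3 lower. In CT it measured 36.0, 35.7 and 37.0, as in WT_ST. The fold of the mean FPKM was 1.83 and the log2 fold change 0.85 (standard error 0.103, adjusted p = 0.0473 from limma).

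Others in this group did not pass the adjusted threshold. Ppil1, a spliceosomal prolyl isomerase that starts 0.852 Mb after Fkbp5, measured 13.6, 12.8 and 13.4 FPKM in WT_ST and 9.16, 10.9 and 7.85 in KO_ST, again outside all wild-type mice. Ip6k3, an inositol hexakisphosphate kinase, measured 0.249, 0.243 and 0.288 in WT_ST and 0.562, 0.587 and 0.645 in KO_ST. It lies 1.25 Mb before Fkbp5 and also had no overlap with any wild-type mouse (log2 fold change 0.35, standard error 0.0552, adjusted p = 0.142 from limma). Rab11fip3, an effector of the recycling-endosome GTPase Rab11, measured 34.7, 20.7 and 33.9 in WT_ST, 19.1, 16.8 and 18.7 in KO_ST and 19.5, 21.0 and 20.2 in CT. Here 2 WT_ST mice stood above all others, and the CT mice lay just above KO_ST.

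The distant group held the Tmem181 and Dynlt1 genes, which lie next to each other. Tmem181b-ps, a pseudogene of the membrane protein gene Tmem181a, measured 33.4, 37.9 and 37.9 FPKM in WT_ST and 1.86, 2.1 and 2.0 in KO_ST. It fell by 3.63 in log2 units (standard error 0.0723, adjusted p = 1.41e-06 from limma), and CT stood at 39.7, 40.6 and 38.8. Tmem181c-ps, a related pseudogene, fell by 0.89 (adjusted p = 0.00599 from limma) and Tmem181a by 0.36 (adjusted p = 0.0343 from limma). Unlike in the Rps27 pair, no copy rose. Summed over the 3 genes, FPKM was 60.8, 65.5 and 66.1 in WT_ST and 21.8, 21.5 and 21.5 in KO_ST, or 33.7% of the wild-type mean.

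Dynlt1b, a light chain of the dynein motor, measured 7.32, 7.69 and 6.85 FPKM in WT_ST and 2.70, 3.95 and 3.16 in KO_ST (log2 fold change -0.95, standard error 0.112, adjusted p = 0.0422 from limma). It overlaps Tmem181b-ps in the annotation, as Dynlt1a overlaps Tmem181a, and whether the counting used strand is not stated. Of its copies, Dynlt1c had a log2 fold change of -0.54 (adjusted p = 0.325 from limma) and Dynlt1f one of -0.50 (adjusted p = 0.771 from limma). Over the 4 Dynlt1 genes the sum was 17.8 ± 1.05 (SD, n = 3) in WT_ST and 10.2 ± 1.52 (SD, n = 3) in KO_ST.

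Rps6ka2 and Fndc1, which have no close copy, and Rsph3b, which has one, changed in the same stretch. Rps6ka2, a ribosomal S6 kinase of the MAP kinase pathway, measured 21.6, 22.2 and 23.6 FPKM in WT_ST and 13.3, 14.6 and 14.3 in KO_ST. It fell by 0.62 in log2 units (standard error 0.0591, adjusted p = 0.0158 from limma), and CT lay between 23.4 and 24.5. Fndc1, a protein with fibronectin repeats, rose from 0.547, 0.545 and 0.476 to 1.73, 2.11 and 1.67, a fold of 3.52 in mean FPKM (log2 fold change 0.90, adjusted p = 0.0102 from limma). Rsph3b, a radial spoke protein of cilia, fell by 0.58 (adjusted p = 0.0314 from limma), and its copy Rsph3a in the same stretch had a log2 fold change of -0.18 (adjusted p = 0.725 from limma).

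Ccr6, the receptor of the chemokine CCL20, had reads in knockout mice only. It had 0 reads in every WT_ST and every CT library and 32, 61 and 92 reads in the KO_ST libraries. Against the limit that a count of 0 allows over the WT_ST group (3 reads), it was at least 62.2-fold higher in KO_ST, for counting error only. Its adjusted p was 0.108 from limma on log2(FPKM+1), 0.00957 from limma on log2(FPKM+0.1), 0.0797 from edgeR and 4.36e-08 from DESeq2. It reached the mean of 30 reads needed for testing only through its KO_ST reads, so it had to differ and these p-values support nothing further. Tagap, a GTPase-activating protein of activated T cells, measured 2.08, 1.89 and 1.85 FPKM in WT_ST and 3.01, 2.92 and 3.30 in KO_ST (adjusted p = 0.112 from limma). Tagap counts among the genes with a near-identical copy. Tagap1, another such gene in this stretch, went the other way (log2 fold change -0.26, adjusted p = 0.272 from limma). Gm16702 measured 1.14, 0.981 and 0.895 in WT_ST and 0.469, 0.193 and 0.329 in KO_ST (adjusted p = 0.176 from limma). Ccr6, Tagap, Tagap1 and Gm16702 each had the KO_ST mice outside the range of the 6 wild-type mice.

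Away from chromosome 17 and without a close copy, the 6 called genes all rose, though Gm14296 was tested only because of its KO_ST reads. Sumo3, a ubiquitin-like modifier, measured 18.0, 16.8 and 18.7 FPKM in WT_ST and 52.0, 52.4 and 50.8 in KO_ST (log2 fold change 1.49, standard error 0.0487, adjusted p = 2.43e-05 from limma). CT replicate 1 stood at 49.9, while the other CT mice stood at 16.2 and 15.2. Brd3, a bromodomain reader of acetylated histones, measured 5.97, 6.30 and 6.34 in WT_ST and 11.7, 11.5 and 10.5 in KO_ST (log2 fold change 0.78, adjusted p = 0.00629 from limma). CT replicate 3 stood at 11.0 and the others at 6.57 and 7.18. For both genes, then, 1 unstressed wild-type mouse had the level of the knockouts. In a fit of all 9 mice, where CT adds to the estimate of the spread, Sumo3, Brd3, Smim1, Ncoa7, Gm14296 and both Rps27 copies no longer passed the adjusted threshold.

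Ncoa7, a nuclear receptor coactivator, measured 7.25, 6.14 and 6.57 FPKM in WT_ST, 13.2, 10.6 and 11.6 in KO_ST and 17.9, 18.1 and 6.74 in CT (log2 fold change 0.75, adjusted p = 0.0473 from limma). Smim1, a small membrane protein, measured 3.27, 3.48 and 3.18 in WT_ST and 5.21, 5.53 and 5.20 in KO_ST, above all 6 wild-type mice (log2 fold change 0.55, adjusted p = 0.0343 from limma). Its CT values ranged from 2.04 to 4.43.

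Gm14295, Gm14296 and Gm14305 lie within one cluster of zinc finger genes on chromosome 2, and their levels were low in WT_ST alone. Gm14295 measured 0.759, 0.844 and 0.116 FPKM in WT_ST, 9.05, 5.59 and 5.71 in KO_ST and 6.14, 11.3 and 8.38 in CT (log2 fold change 2.32, adjusted p = 0.0227 from limma). Gm14296 had 0, 0 and 6 reads in WT_ST and 500 to 913 in KO_ST (adjusted p = 0.0250 from limma). Gm14305, which counts among the genes with copies and has 7 of them, rose by 1.71 in log2 units (adjusted p = 0.0250 from limma). Over these 8 genes the summed FPKM was 6.51, 5.97 and 8.53 in WT_ST, 17.3, 12.6 and 13.8 in KO_ST and 13.9, 14.4 and 16.3 in CT. For these genes the CT mice stood with the knockout mice, above all WT_ST mice.

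Many of the largest differences elsewhere were split within a group. Among genes in neither class that met the nominal criterion, the 8 largest log2 fold changes were those of Gm14295, Gm14296, Sumo3, Psmc3ip, Abi2, Islr2, Hbq1a and Arc, and the 8 smallest those of Pttg1, Nucks1, Cfap74, Rnf6, Gm10560, Dnajb6, Mpeg1 and Slc2a5. Apart from the first 3, none of these passed the adjusted threshold. Pttg1, the securin of sister chromatid separation, measured 10.6, 8.89 and 9.28 FPKM in WT_ST and 1.09, 0.682 and 10.5 in KO_ST. Abi2, an actin regulator of the WAVE complex, measured 41.0, 11.6 and 14.2 in WT_ST and 42.3, 38.4 and 41.3 in KO_ST. In both, 1 mouse stood at the level of the other genotype, and the CT mice fell on either side.

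A second gathering of such genes lay near the end of chromosome 6. Among windows of 25 Mb on chromosome 6, the one from 125 to 150 Mb had the highest share. There 17 of 130 tested genes (13.1%) met the nominal criterion, against 10 of 579 (1.73%) on the rest of that chromosome, and none passed the adjusted threshold. Other chromosomes were not searched in such windows. Gapdh, the glycolytic dehydrogenase often used as a reference gene, measured 864, 814 and 715 FPKM in WT_ST and 566, 620 and 549 in KO_ST, just outside the adjusted threshold (log2 fold change -0.50, standard error 0.0646, adjusted p = 0.0586 from limma). In CT it measured 540, 507 and 683, so that 2 CT mice lay below all KO_ST mice and 1 between the stressed groups. For these 17 genes, 20 of the 51 CT values were nearer to WT_ST than to KO_ST. The window was chosen by these values.

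Glucocorticoid-induced genes, the readout nearest to FKBP51, mostly had higher means in KO_ST, but none passed the adjusted threshold. Of 26 tested genes, 22 had a higher mean in KO_ST, against 49.3% of all tested genes, and their median log2 fold change was 0.17, against -0.0015 over all tested genes. All 3 KO_ST mice lay above all WT_ST mice for 6 of them, against 4.97% of all genes, and for none did they all lie below. Left-out samples moved the count with a higher mean between 20 and 24 of 26 and the median between 0.11 and 0.24. The summed FPKM of the list was 620, 660 and 662 in WT_ST, 661, 706 and 766 in KO_ST and 683, 673 and 688 in CT, so that CT lay above every WT_ST mouse and within the range of KO_ST. The list includes 4 genes of chromosome 17, without which 19 of 22 had a higher mean and the median was 0.17.

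Of this list 4 met the nominal criterion, all higher in KO_ST, or 15.4% against 0.952% of all tested genes. In 3 of the 26 (11.5%), the KO_ST mice lay outside all 6 wild-type mice, against 3.62% of all tested genes. Tsc22d3, which encodes the glucocorticoid-induced leucine zipper GILZ, measured 16.8, 17.4 and 24.2 FPKM in WT_ST, 24.3, 27.9 and 28.6 in KO_ST and 19.6, 14.5 and 17 in CT (log2 fold change 0.47, standard error 0.136, adjusted p = 0.719 from limma). The knockout mice lay above all wild-type mice, though only just above the highest WT_ST mouse. Dusp1, a phosphatase that switches off MAP kinases, measured 7.62, 6.10 and 8.17 in WT_ST and 10.6, 18.0 and 11.6 in KO_ST (log2 fold change 0.78, adjusted p = 0.647 from limma). It starts 1.89 Mb before Fkbp5, inside the group of chromosome 17 genes described above. Sult1a1, a sulfotransferase, and Plin4, a lipid droplet protein also on chromosome 17, had log2 fold changes of 0.31 and 0.33 (adjusted p = 0.844 for both from limma).

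Per1, Klf15 and Sgk1, further targets, did not meet the criterion. Per1, a clock gene with glucocorticoid response elements, measured 18.1, 18.8 and 19.6 FPKM in WT_ST and 21.5, 24.1 and 20.0 in KO_ST, and Klf15 measured 6.89, 7.96 and 8.0 in WT_ST and 8.90, 9.22 and 9.55 in KO_ST. Both lay above all 6 wild-type mice in KO_ST. Sgk1, a kinase induced by both corticosteroid receptors, measured 20.2, 18.9 and 23 in WT_ST and 21.4, 24.2 and 30.9 in KO_ST, with overlap. Zbtb16, a zinc finger repressor, had the lowest value of the list, with a log2 fold change of -0.25 (adjusted p = 0.872 from limma).

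**Figure D4:**
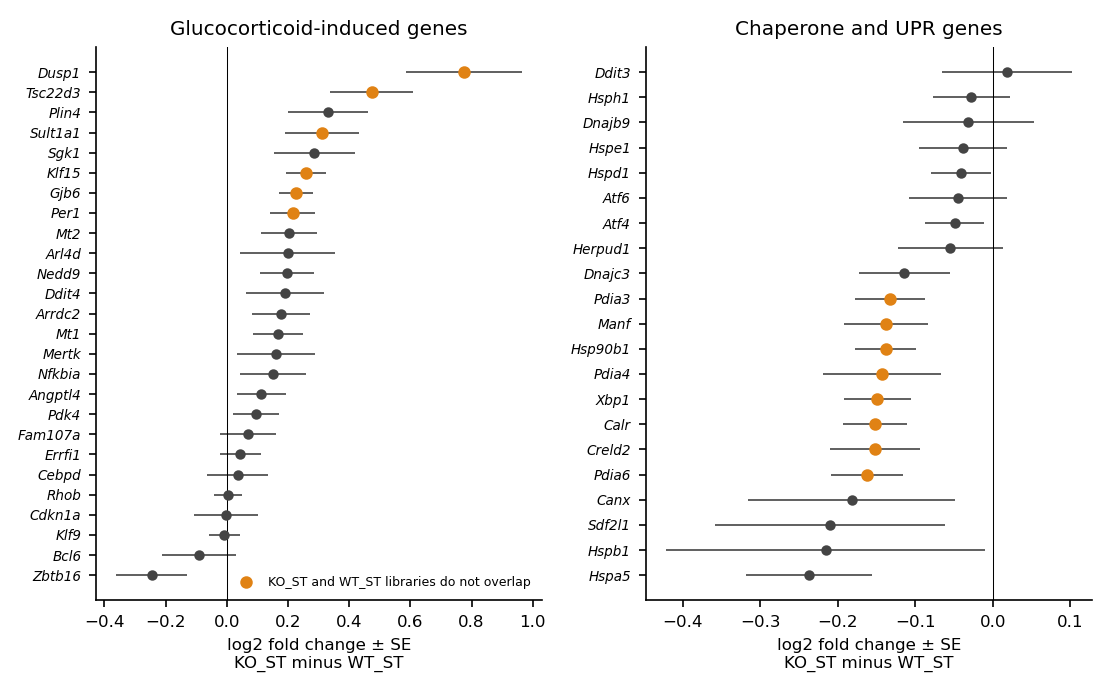
Log2 fold change with its standard error, KO_ST minus WT_ST, for each tested gene of the glucocorticoid-induced list (left, 26 genes) and of the chaperone and unfolded protein response list (right, 21 genes). Most of the first lie above 0 and most of the second below, with KO_ST and WT_ST mice not overlapping for 6 and 8 genes, and no gene in either list passed the adjusted threshold.

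Chaperone and unfolded protein response genes, which fold proteins in the endoplasmic reticulum and cytosol, mostly had lower means in KO_ST. Of 21 tested genes, 20 had a lower mean in KO_ST, against 50.7% of all tested genes, with a median log2 fold change of -0.14 and a range from -0.24 to 0.02. All KO_ST mice lay below all WT_ST mice for 8 of the 21, against 5.93% of all genes. With the CT mice included, only Xbp1, or 4.76% of the list, had the KO_ST mice outside all 6 wild-type mice, against 3.62% of all genes. The summed FPKM of the list was 1080, 1030 and 992 in WT_ST, 948, 937 and 970 in KO_ST and 959, 907 and 990 in CT, so that CT overlapped KO_ST and lay below WT_ST. None met the nominal criterion. Xbp1, a transcription factor of that response, measured 28.6, 27.7 and 26.4 FPKM in WT_ST, 24.1, 24.6 and 24.9 in KO_ST and 27.1, 26.5 and 26.5 in CT. Calreticulin, encoded by Calr, measured 192, 186 and 178 in WT_ST, 159, 168 and 175 in KO_ST and 170, 154 and 179 in CT, so that here CT reached down to KO_ST. Hspa5, the chaperone BiP, had the lowest log2 fold change of the list, at -0.24 (standard error 0.0809, adjusted p = 0.826 from limma). Without WT_ST replicate 1, 5 of the 21 had a higher mean in KO_ST and the median was -0.10.

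The receptor machinery apart from Fkbp5 had no called gene. Of 24 tested genes of the corticosteroid receptor chaperone complex, Fkbp5 was the only one to pass the adjusted threshold or to meet the nominal criterion, and the median log2 fold change was -0.02. Nr3c1, the glucocorticoid receptor, measured 14.8 ± 0.647 FPKM (SD, n = 3) in WT_ST and 15.3 ± 0.692 (SD, n = 3) in KO_ST. Nr3c2, the mineralocorticoid receptor, measured 4.67 ± 0.212 and 4.87 ± 0.374 (SD, n = 3 each). Fkbp4, whose product FKBP52 competes with FKBP51 for the receptor complex, measured 49.2 ± 3.47 and 45.8 ± 0.610 (SD, n = 3 each). Among the other 13 tested FK506-binding proteins, log2 fold changes ranged from -0.20 for Fkbp14 to 0.10 for Fkbp7, with none called. Of 19 known signaling partners of FKBP51, such as the kinase Akt1 and the phosphatases Phlpp1 and Phlpp2, none met the nominal criterion, and log2 fold changes lay between -0.13 and 0.08.

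Immediate early genes, which report recent neuronal activity, did not move together. Of 24 tested genes, 13 had a higher and 11 a lower mean in KO_ST, with a median log2 fold change of 0.03, and none passed the adjusted threshold. By the nominal criterion 7 were called higher, against 0.952% of all tested genes, and 2 lower, against 1.04%. In 2 of the 24 (8.33%), the KO_ST mice lay outside all 6 wild-type mice, against 3.62% of all tested genes. Arc, a synaptic capsid-like protein, measured 18.7, 18.1 and 15.1 FPKM in WT_ST and 23, 51.7 and 31.6 in KO_ST (log2 fold change 0.94, standard error 0.263, adjusted p = 0.710 from limma). Nr4a1, Ier2, Btg2, Dusp6 and Sik1 had log2 fold changes of 0.39, 0.39, 0.37, 0.27 and 0.38, and Dusp1 belongs to this list as well. Sik1, which starts 3.445 Mb after Fkbp5, and Dusp1 lie on chromosome 17, and without them 11 of 22 genes had a higher mean and the median was -0.01. Egr3, a zinc finger transcription factor, measured 41.5, 37.8 and 33.2 in WT_ST and 28.5, 28.0 and 32.6 in KO_ST (log2 fold change -0.31, adjusted p = 0.7 from limma). Homer1, a postsynaptic scaffold, had a log2 fold change of -0.35 (adjusted p = 0.815 from limma). CT replicate 1 was at or above all WT_ST mice for Arc, Nr4a1 and Egr3 alike, at 34.9, 35.7 and 43.0 FPKM. Fos itself measured 5.29, 5.10 and 3.04 in WT_ST and 3.81, 6.71 and 5.03 in KO_ST.

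**Figure D5:**
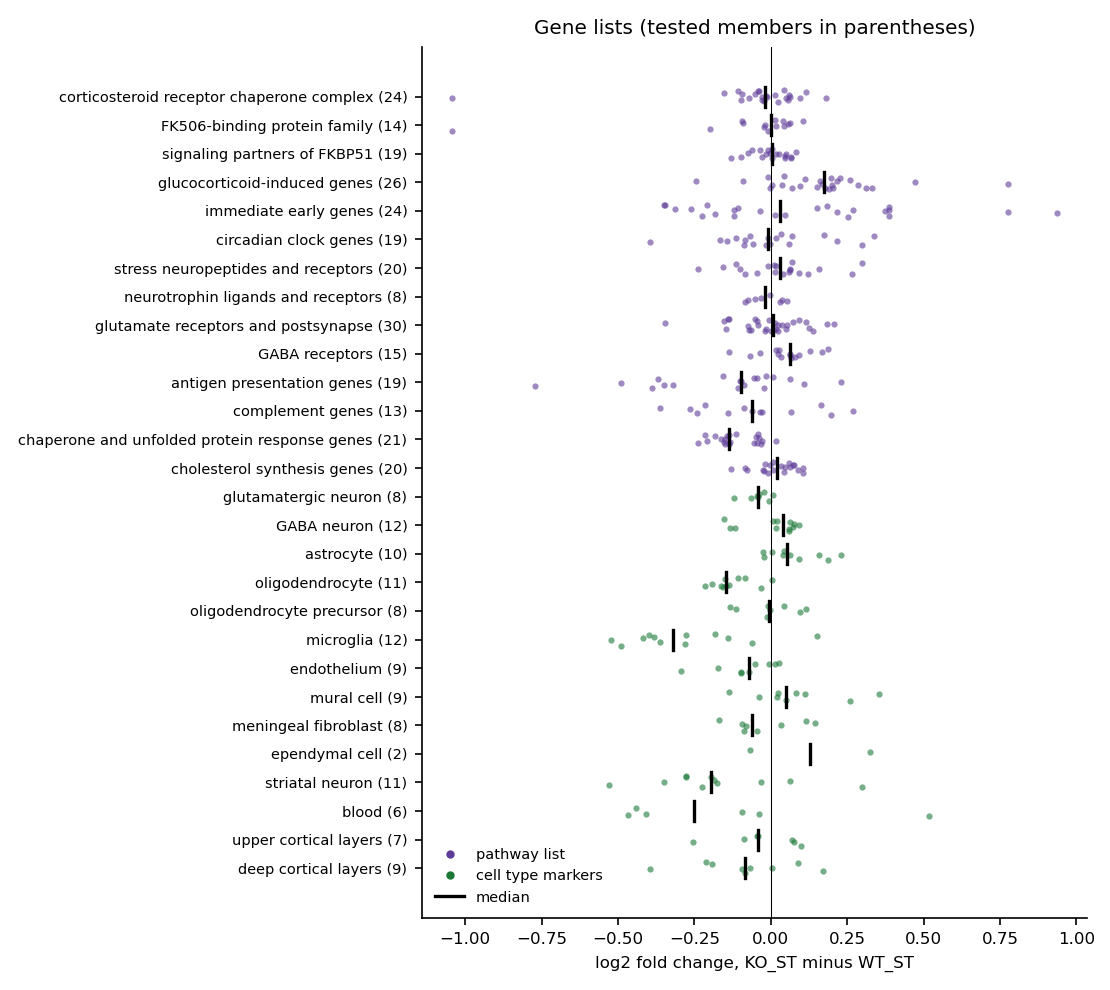
Log2 fold change, KO_ST minus WT_ST, of every tested member of each gene list with at least 2 tested members, with the median of each list as a black bar. Medians lie between -0.32 for microglia and 0.17 for glucocorticoid-induced genes.

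The remaining pathway lists had at most 1 gene meeting the nominal criterion each, against 2.0% of all tested genes, and none past the adjusted threshold. Among 19 circadian clock genes that one was Ciart (log2 fold change 0.30, 5.26% of the list). Among 20 stress neuropeptides and receptors it was Tac1, the substance P precursor (0.30, 5.0% of the list). For 4 of the clock genes (21.1%), 3 higher and 1 lower, KO_ST and WT_ST mice did not overlap, against 10.9% of all tested genes. For 30 genes of glutamate receptors and the postsynapse it was Homer1 (3.33% of the list), and the median was 0.01. For GABA receptors 12 of 15 genes had a higher mean, with a median of 0.06. Of 8 neurotrophin ligands and receptors, 13 complement genes and 20 cholesterol synthesis genes none met the criterion, with medians of -0.02, -0.06 and 0.02. Antigen presentation genes, 17 of 19 on chromosome 17, had 15 lower means and a median of -0.10, but without WT_ST replicate 1 the median was 0.04 with 11 higher means, and without WT_ST replicate 3 it was -0.22. In that list H2-T23 measured 0.487 FPKM in KO_ST replicate 2 and between 6.43 and 14.2 in the other 5 stressed mice.

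Marker genes of the prefrontal cortex were present, and those of other tissue differed between single mice. Glutamatergic neuron markers summed to 2170 to 2390 FPKM in WT_ST and 2130 to 2380 in KO_ST, and GABA neuron markers to 1020 to 1120 and 1080 to 1130. Choroid plexus markers were near 0, at 0.899 to 1.04 in WT_ST and 1.01 to 1.08 in KO_ST over 7 genes. Striatal markers summed to 96.8, 124 and 129 in WT_ST and 115, 93.6 and 113 in KO_ST. Of that list, Rgs9 met the nominal criterion at a log2 fold change of -0.53. Blood markers reached 614 in WT_ST replicate 3 and lay between 191 and 324 in the other stressed mice. Tagln among mural cell markers (0.35) and Cplx3 among deep layer markers (-0.40) also met the criterion, and no marker passed the adjusted threshold.

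Microglia markers had the lowest median of all lists. Of 12 tested markers 11 had a lower mean in KO_ST, and their median log2 fold change was -0.32. In bulk tissue, fewer cells of a type and less RNA per cell cannot be told apart. The summed FPKM was 204, 182 and 176 in WT_ST and 101, 156 and 218 in KO_ST, so the groups overlapped, and CT reached 226, 222 and 280. P2ry12, the purinergic receptor of resting microglia, measured 16.9, 15.6 and 14.5 in WT_ST and 9.04, 10.1 and 15.7 in KO_ST (log2 fold change -0.42, adjusted p = 0.861 from limma). Without KO_ST replicate 1 the median of the list was -0.03, and without replicate 3 it was -0.58. Mpeg1 and Slc2a5, named above among the lowest changes, followed the same order of mice: Mpeg1 measured 1.22, 2.35 and 4.36 in KO_ST against 4.40 to 5.24 in WT_ST. The complement list shares C1qa, C1qb and C1qc with the microglia markers and is thus not independent of them. Its median was -0.06 over all mice, 0.06 without KO_ST replicate 1 and -0.25 without KO_ST replicate 3. The part of microglial RNA in these values was not tested. Without WT_ST replicate 2, the median of the oligodendrocyte markers was -0.0014 with 5 of 11 means higher, and without WT_ST replicate 1 it was -0.31. Over all 6 mice 10 of 11 had a lower mean (median -0.15), and their sums overlapped, at 557, 878 and 815 in WT_ST and 596, 656 and 771 in KO_ST.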

How the data were processed

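Medial prefrontal cortex RNA was sequenced from 9 mice with a stranded mRNA kit, and WT_ST and KO_ST, 3 mice each, were compared here. The authors aligned reads to GRCm38 (mm10) with HISAT2 2.1.0, for which Bowtie2 2.3.4.1 is also named, and quantified genes with StringTie 1.3.4d, per the submitters' processing notes. The authors deposited for every gene a read count without normalization and an FPKM value, scaled by transcript length and mapped reads. The strand setting is not given in the sources used here. Of 24532 listed genes, 5765 had no reads in the 6 stressed mice. Counts of any 2 libraries differed beyond sampling noise (lowest chi-square 18.8 per degree of freedom), so each was counted as a separate sample.

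Genes with a mean of 30 or more reads over the 6 mice were tested as log2(FPKM + 1), quantile normalized over all 9 mice, with limma 3.58.1 (trend) in R 4.3.3 on the 6 stressed samples, and Benjamini-Hochberg adjustment covered all 14282 genes. After the study's methods FPKM stayed the main measure. Count tests with edgeR 4.0.16 and DESeq2 1.42.0, other pseudocounts, filters and normalizations, a replicate block and leaving out each mouse were alternatives. The methods were tested on simulated data. Positions came from RefSeq for GRCm38.p6 (24458 genes matched) and transcripts from GENCODE M21 (24299 genes). Near-identical copies were found from transcripts sharing at least 50% of 31-base words without overlapping, and from gene names that mark a pseudogene (-ps), related sequence (-rs) or retrogene (rt) of another gene. The member genes, the 14 pathway lists and 15 marker lists were chosen with earlier results of these data known. Named are Fkbp5, genes with an adjusted p under 0.05 and their copies, the 10 chromosome 17 genes with the smallest p, the 8 largest and 8 smallest changes elsewhere that met the nominal criterion and, per list, the genes that met it or else the extremes. Not every gene so selected is named, and any further gene in the text was picked with its values in view. Figures used matplotlib 3.10.9 in Python 3.11.15. Some results, among them those of 1 called gene, are not reported here.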

Additional observations from a re-analysis of the deposited data

How the results depend on the processing

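The 20 genes with an adjusted p under 0.05 became 13 without a filter on low values, 75 with DESeq2 on read counts and 2 in a fit of the 13371 genes without chromosome 17 and copies, of which 6 were called among all genes. Leaving out 1 mouse gave 11 to 22, the lowest without WT_ST replicate 2, where Fkbp5 had an adjusted p of 0.0525 (log2 fold change -1.07). The 285 genes at p under 0.05 and a fold change above 1.2 became 431 with log2(FPKM + 0.1), and 237 to 468 with 1 mouse left out, the highest without KO_ST replicate 3. With edgeR 22 genes had an adjusted p under 0.05, 18 of them among the 20, without Dynlt1b and Gm14295, and the 75 of DESeq2 held all 20. The fit without a filter lost Dynlt1b, Glo1, Gm14295, Gm14296, Gm14305, Ncoa7, Rsph3b and Smim1. Replicate numbers did not pair the mice: deviations of mice with the same number correlated at -0.0571, -0.108 and -0.259, and none correlated best with its own number. With the replicate block, 4 genes passed and Fkbp5 had a log2 fold change of -1.04 at an adjusted p of 0.0889. The log2 fold change of Fkbp5 lay between -0.96 and -1.11 with 1 mouse left out.

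Of 1496 refits of the other 96 named genes, 1368 kept direction and side of the adjusted threshold, 88 lost and 17 gained the call, and 23 changed sign. The cause was not tested. Log2 fold changes of the genes that changed sign were, with 1 mouse left out, -0.0759 to 0.0678 for Aspa, -0.0343 to 0.1497 for Bdnf, -0.053 to 0.1845 for Cux1, -0.0703 to 0.0839 for Ddit3, -1.4997 to 0.1774 for H2-T23, -0.2489 to 1.2486 for Hba-a1, -2.7712 to 1.6697 for Hbb-bs, -0.0587 to 0.0611 for Neurod6, -0.1743 to 0.0311 for Ntf3, -0.0345 to 0.4621 for Slc6a13, -0.1229 to 0.0463 for Sox9, and -0.0065 for Aspa with no quantile normalization, and -0.0383 for Cux1 with edgeR on read counts, and -0.032 for Cux1 with DESeq2 on read counts. With 3 mice a group, permutation tests of single values cannot go below p = 0.1.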
